A study of Mus musculus with 3 samples.

Results

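The 8 genes described here encode the subunits of CCT (also called TRiC), the chaperonin of the cytosol, and are 8 of the 41743 gene symbols in the tables. They were taken by symbol (Tcp1, Cct2, Cct3, Cct4, Cct5, Cct6a, Cct7 and Cct8), and each symbol had 1 row in every table. The set was selected on earlier results of these libraries, namely log2 folds of ezrin over IgG, so its values in that contrast are a description and carry no test. Cells were K7M2, a mouse osteosarcoma line, in which the ezrin gene had been knocked out with CRISPR/Cas9 and a cDNA for ezrin with the T567A change stably transfected. All 3 libraries come from that 1 genotype, Ezrin -/- transfected with Ezrin T567A, with no treatment. RNA was recovered with an antibody to ezrin (2 libraries, replicates 1 and 2) or with normal mouse IgG (1 library), and sequenced (RIP-seq). The labels name both depletion of ribosomal RNA and polyA RNA. The IgG library has no replicate, no input RNA was among the libraries analysed here, and no source used here says whether the ezrin replicates were separate cultures.

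CCT is a double ring in which each of the subunits holds a fixed place. Newly made proteins, above all actins and tubulins, fold inside its chamber in a cycle driven by ATP, and a lid built from the subunits themselves closes over them. Prefoldin delivers unfolded actin and tubulin to the chamber, and phosducin-like proteins adjust the folding cycle. Actin chains contact the subunit encoded by Cct4 together with that of Cct2 or Cct5. Ezrin links the plasma membrane to actin filaments, and in the T567A form the threonine whose phosphorylation opens the protein is missing. The study asked which RNAs the closed form of ezrin binds.

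The ezrin libraries held 19676595 (replicate 1) and 16196329 (replicate 2) counts at genes, and the IgG library 10124580. Protein-coding genes held 97.0% and 97.5% of counts in the ezrin libraries, against 74.1% in the IgG library. Reads at Ezr, which cannot be divided between transgene and gene, numbered 7003 and 5879 in the ezrin libraries and 1479 in the IgG library. Of 9 markers of the osteoblast lineage, Col1a1, Col1a2, Sparc, Spp1 and Runx2 had at least 584 counts in each library, Alpl had 17 to 33, and Sp7, Bglap and Ibsp had at most 1. Of 4 macrophage markers, Csf1r had at least 11804 counts per library, Cd68 at most 7, and Adgre1 and Ptprc were at 0. The 4 epithelial markers together had 5 and 4 counts in the ezrin libraries, against 3 in IgG, and the 3 endothelial markers 22 and 22, against 20.

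RefSeq promoter windows of GRCm38.p6, each of 300 bases (250 before and 50 after a start), matched 7 of the 8 genes with 9 windows; Cct4 was the gene without one. They are shown for the genes with the highest and the lowest ratio of ezrin to IgG, Cct3 and Tcp1, and for Cct5 and Cct6a, which hold a match to the heat shock element bound by the stress factor HSF1. Capitals mark 4 searched motifs on either strand, namely the heat shock cores GAANNTTC and TTCNNGAA, the CCAAT box and the ETS core CCGGAA, each read on both strands. No match overlapped another of a different kind in these 4 windows.
Cct3, chr3:88296885-88297184, plus strand: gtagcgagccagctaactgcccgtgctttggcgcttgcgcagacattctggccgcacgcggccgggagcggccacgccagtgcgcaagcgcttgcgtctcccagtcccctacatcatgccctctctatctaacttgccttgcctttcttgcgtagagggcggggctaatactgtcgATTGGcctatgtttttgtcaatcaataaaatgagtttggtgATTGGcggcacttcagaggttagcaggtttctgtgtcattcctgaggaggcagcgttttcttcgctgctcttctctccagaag
Tcp1, chr17:12916079-12916378, plus strand: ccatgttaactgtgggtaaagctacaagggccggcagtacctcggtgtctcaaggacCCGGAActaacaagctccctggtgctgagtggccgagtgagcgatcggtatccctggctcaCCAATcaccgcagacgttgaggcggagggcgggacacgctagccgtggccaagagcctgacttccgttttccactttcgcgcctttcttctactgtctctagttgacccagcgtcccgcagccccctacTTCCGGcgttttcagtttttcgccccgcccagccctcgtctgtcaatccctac
Cct5, chr15:31601797-31602096, minus strand: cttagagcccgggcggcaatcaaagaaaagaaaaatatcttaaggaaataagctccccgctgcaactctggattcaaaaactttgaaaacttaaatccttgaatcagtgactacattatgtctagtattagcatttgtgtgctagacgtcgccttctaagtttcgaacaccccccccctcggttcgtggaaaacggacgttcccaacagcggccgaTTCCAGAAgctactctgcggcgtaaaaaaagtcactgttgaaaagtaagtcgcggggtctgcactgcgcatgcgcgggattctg
Cct6a, chr5:129787106-129787405, plus strand: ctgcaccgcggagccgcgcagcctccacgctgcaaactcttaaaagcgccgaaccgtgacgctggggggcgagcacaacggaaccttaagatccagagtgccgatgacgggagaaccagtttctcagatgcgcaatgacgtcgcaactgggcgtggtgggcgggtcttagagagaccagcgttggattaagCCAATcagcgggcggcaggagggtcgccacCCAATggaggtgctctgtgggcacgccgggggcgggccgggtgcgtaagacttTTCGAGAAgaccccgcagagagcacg
A heat shock core lay in 3 of the 9 windows, 1 each of Cct2, Cct5 and Cct6a, and in 11.6% of the 12183 windows of tested genes. CCAAT lay in 4 windows (Tcp1, Cct3, Cct6a and Cct7), against 38.7% of windows of tested genes, and CCGGAA in 5 (Tcp1, Cct2, Cct5, Cct7 and Cct8), against 27.9%. A match is a run of letters and not a measured site, and RIP-seq does not measure promoters.

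Messages of all 8 subunits were more abundant in both ezrin libraries than in the IgG library, by 1.78-fold (Tcp1) to 3.40-fold (Cct3). Together they took 0.727% of all counts in ezrin replicate 1 (exact 95% interval 0.723 to 0.731) and 0.775% in replicate 2 (0.771 to 0.779), against 0.245% in the IgG library (0.242 to 0.248). The intervals are Clopper-Pearson intervals and cover counting error only. On the scale of TMM-scaled CPM (counts divided by a library size corrected for composition), the 8 genes summed to 7131 and 7483 CPM in the ezrin libraries and 2596 CPM in the IgG library. All 8 were called higher by edgeR's quasi-likelihood test at a Benjamini-Hochberg adjusted p under 0.05, a threshold that 19.0% of the 12478 genes tested passed on the higher side and 17.4% on the lower side. Nothing is read from that count, since this contrast led to the choice of the genes. Their median log2 fold was 1.39, with 1.40 and 1.38 as plain log2 ratios of ezrin replicates 1 and 2 to IgG, and the median over all tested genes was −0.02. RIP-seq compares shares of the recovered RNA, so a larger share of a message and a smaller share of other RNA in the same library cannot be told apart.

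Cct3, Cct2 and Cct8 had the largest differences, each over 3-fold. Cct3, the gamma subunit (chromosome 3, 88297135 to 88321766, GRCm38.p6, protein-coding), had 36019 and 29020 counts in the ezrin libraries and 4954 in IgG. That is 1795 and 1730 CPM in the ezrin libraries, against 518 CPM in the IgG library, with a log2 fold of 1.77 (SE 0.23). Cct3 held the highest CPM of the 8 genes in every library and ranked 27 and 28 among all tested genes in the ezrin libraries, against rank 170 in IgG. Cct2, the beta subunit, which has also been described as a receptor that brings protein aggregates to autophagy (chromosome 10, 117050997 to 117063852), had 1430 and 1455 CPM in the ezrin libraries and 430.4 CPM in IgG, from 28697, 24411 and 4118 counts (log2 fold 1.75, SE 0.23). Its 2 ezrin values lay close to each other and far from the IgG value. Cct8, the theta subunit, whose Arabidopsis counterpart is needed for the passage of a homeobox protein between cells (chromosome 16, 87483325 to 87495869), had 1197 and 1532 CPM in the ezrin libraries and 418 CPM in IgG, from 24028, 25699 and 4003 counts. Its log2 fold was 1.71 (SE 0.23), and it was the subunit whose ezrin replicates lay furthest apart, with a log2 ratio to IgG of 1.51 in replicate 1 and 1.87 in replicate 2. Both Cct8 values in ezrin libraries were still well above the IgG value.

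Cct5, Cct7 and Cct4 were between 2.27- and 2.72-fold higher. Cct5, the epsilon subunit, in which mutations in people cause a sensory neuropathy (chromosome 15, 31590800 to 31601846), had 784 and 775 CPM in the ezrin libraries and 286 CPM in IgG, from 15733, 12993 and 2740 counts (log2 fold 1.44, SE 0.23). The eta subunit gene Cct7 (chromosome 6, 85451505 to 85468477) had 588 and 578 CPM in the ezrin libraries and 230 CPM in IgG, from 11800, 9693 and 2203 counts (log2 fold 1.34, SE 0.24). For both genes the 2 ezrin libraries nearly coincided. Cct4, the delta subunit, in which a mutation in rats causes a sensory neuropathy (chromosome 11, 22990593 to 23003336), had the fewest counts of the set, 6682 and 5993 in the ezrin libraries and 1457 in IgG. This gave 333 and 357 CPM in the ezrin libraries and 152 CPM in the IgG library (log2 fold 1.18, SE 0.24).

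Cct6a and Tcp1 had the smallest differences, both under 2-fold. Cct6a, the zeta subunit (chromosome 5, 129787356 to 129846443), had 407 and 461 CPM in the ezrin libraries and 227 CPM in IgG, from 8160, 7725 and 2169 counts (log2 fold 0.94, SE 0.23). Tcp1, the alpha subunit, first known as a protein of the mouse t complex (chromosome 17, 12916329 to 12925067), had 596 and 595 CPM in the ezrin libraries and 334 CPM in IgG, from 11969, 9975 and 3194 counts (log2 fold 0.84, SE 0.23). Its ezrin replicates nearly coincided, and by CPM it ranked behind Cct3, Cct2 and Cct8 in IgG but also behind Cct5 in the ezrin libraries. The standard errors rest on a spread pooled over all genes, from the 2 ezrin libraries alone.

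**Figure D1:**
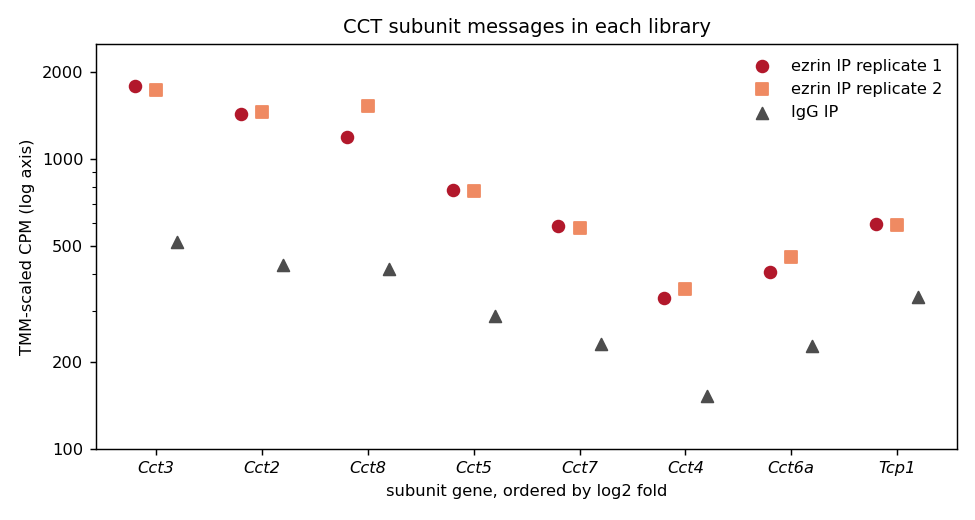
TMM-scaled CPM (log axis) of each subunit gene in ezrin replicate 1 (circles), ezrin replicate 2 (squares) and IgG (triangles), with 1 point per library and genes ordered by log2 fold. The ezrin points lie above the IgG point for all 8 genes, and the gap narrows from Cct3 (1795 and 1730 against 518 CPM) to Tcp1 (596 and 595 against 334 CPM).

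Because the differences were unequal, the makeup of the CCT counts was not the same in both kinds of library. Cct3 held 25.2% (exact 95% interval 24.9 to 25.4) and 23.1% (22.9 to 23.4) of the counts at the 8 genes in the ezrin libraries, against 19.9% (19.4 to 20.4) in IgG. Cct2 held 20.1% and 19.4% in the ezrin libraries and 16.6% in IgG. Tcp1 took the other direction, with 8.36% (8.22 to 8.51) and 7.95% (7.80 to 8.10) in the ezrin libraries, against 12.9% (12.4 to 13.3) in IgG. Cct6a held 5.70% and 6.15% in the ezrin libraries and 8.73% in IgG, and Cct4 4.67% and 4.77% against 5.87%. Cct7 was also below its IgG share in both ezrin libraries, with 8.25% and 7.72% against 8.87%. Cct8 held 16.8% and 20.5% in the ezrin libraries and 16.1% in IgG, so that replicate 1 lay close to the IgG value and replicate 2 above it. Cct5 overlapped the IgG interval in replicate 1, with 11.0% and 10.4% in the ezrin libraries and 11.0% in IgG. These are shares of reads, without correction for gene length, and were not tested.

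**Figure D2:**
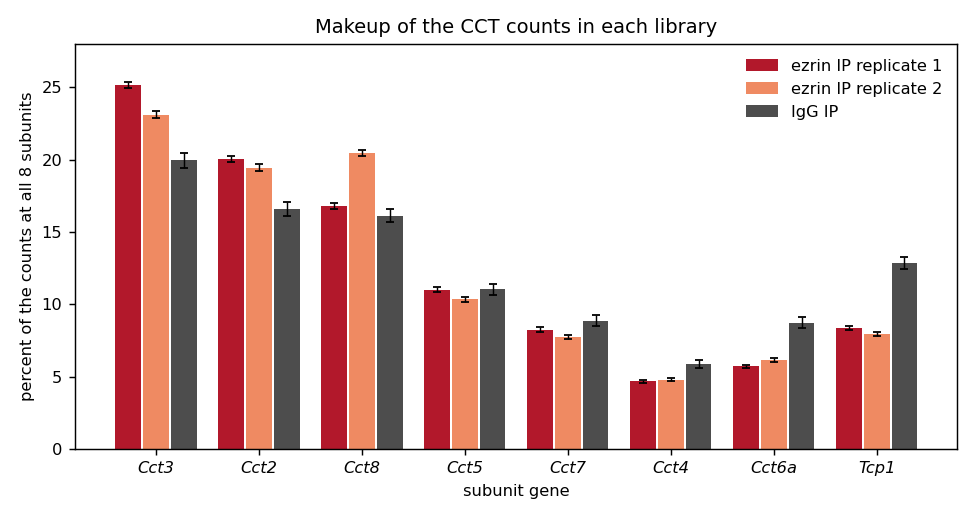
Percent of the counts at all 8 subunit genes held by each gene in ezrin replicate 1, ezrin replicate 2 and IgG; error bars are exact 95% intervals for counting error. Cct3 and Cct2 held more of the CCT counts in both ezrin libraries than in IgG, and Tcp1 (8.36% and 7.95% against 12.9%), Cct6a, Cct4 and Cct7 held less.

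Per length, Cct2 was the most abundant subunit message in every library. Levels on this scale are the deposited RPKM, reads scaled to the length of the gene and the depth of the library. The lengths implied by count and RPKM ran from 2557 bases (Cct2) to 6778 bases (Cct7), and the same length was implied in all 3 libraries. Cct2 had 469 and 490 RPKM in the ezrin libraries, against 109 RPKM in IgG. Cct8 followed with 325 and 427 RPKM in the ezrin libraries and 87.9 RPKM in IgG. Cct5 had 238 and 241 RPKM in the ezrin libraries and 67.2 in IgG, just above Cct3 with 236 and 234 in the ezrin libraries and 52.8 in IgG. Cct3, first by CPM, thus stood behind Cct2, Cct8 and Cct5 per length. A gap separated these 4 genes from the others. Cct6a had 94.2 and 109.6 RPKM in the ezrin libraries and 40.6 in IgG, and Tcp1 99.5 and 102 in the ezrin libraries and 43.1 in IgG. Cct7 had 72.8 and 73.4 RPKM in the ezrin libraries and 22.0 in IgG, and Cct4 66.5 and 73.2 in the ezrin libraries and 23.5 in IgG. In the ezrin libraries Cct6a and Tcp1 overlapped, as did Cct7 and Cct4, and both pairs stood in the other order in IgG. Each other neighbouring pair in this order was apart in the ezrin libraries and ran the same way in IgG. The highest RPKM was 7.06 and 6.69 times the lowest in ezrin replicates 1 and 2, and 4.95 times the lowest in IgG. The chaperonin itself holds its subunits in equal number, and the length used for a gene can include parts that not every transcript carries.

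More abundant subunits tended to have larger log2 folds. Tcp1 was an exception, with the smallest log2 fold (0.84) but more CPM than Cct4, Cct6a and Cct7 in every library. Over the 8 genes, the log2 fold and the ezrin mean CPM had a Spearman rho of 0.83 (Pearson r 0.85 on log2 CPM), and the log2 fold and the IgG CPM a rho of 0.74 (r 0.64). Both measures come from the same libraries as the fold, and the 8 points are genes and not replicates. The log2 fold and the IgG RPKM had a rho of 0.62 (r 0.59), and the log2 fold and the implied length a rho of −0.24 (r −0.21). Abundant genes in general were more often higher in ezrin libraries. Among the 574 tested genes whose mean over the 3 libraries lay between 281 and 1348 CPM, the range of the subunits, 48.8% were called higher and the median log2 fold was 0.49. This background was chosen after the data were seen. The smallest subunit fold, that of Tcp1, stood at percentile 84.4 of all tested genes and the largest, that of Cct3, at percentile 97.8. These percentiles are not taken within the subunits' range of CPM. They describe folds that led to the choice of the genes, and nothing is read from them.

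**Figure D3:**
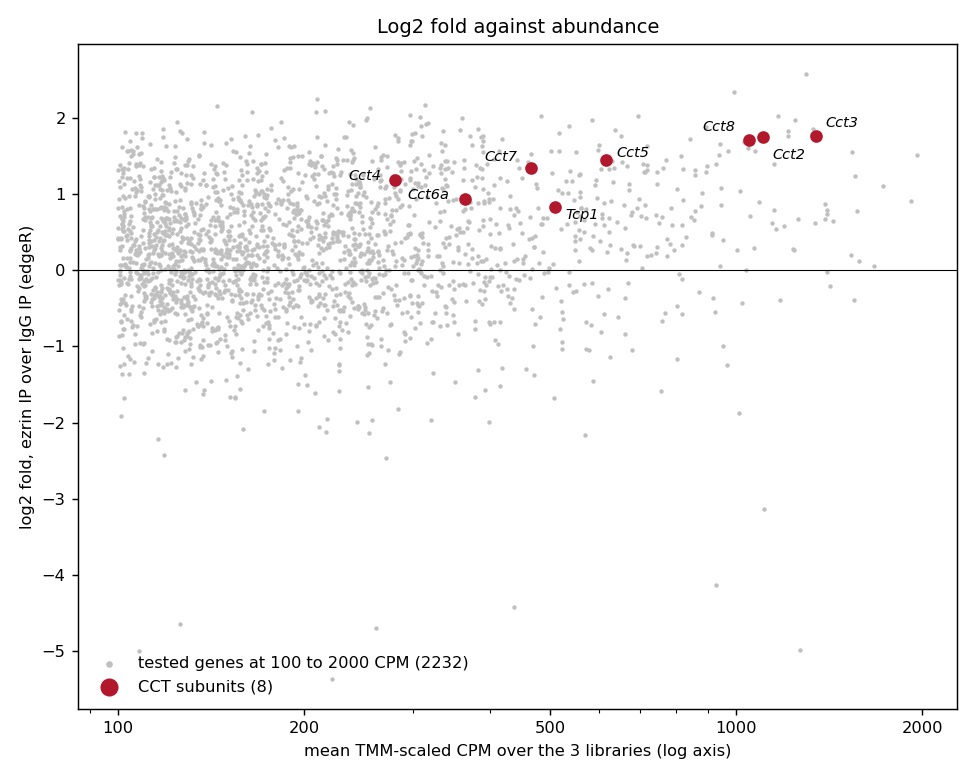
Log2 fold of ezrin over IgG by edgeR against mean TMM-scaled CPM (log axis) for the 2232 tested genes at 100 to 2000 CPM (grey) and the 8 subunits (red, named). All 8 subunits lie above 0, between 0.84 and 1.77, and Cct2, Cct3 and Cct8 lie furthest to the right and highest among them.

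A normalization that removes the trend with abundance made every subunit difference smaller. After cyclic loess the log2 folds were 1.12 for Cct2, 1.10 for Cct3, 1.08 for Cct8, 0.94 for Cct5, 0.89 for Cct7 and 0.83 for Cct4. Cct6a (0.53) and Tcp1 (0.36) were no longer called by limma, so that 6 of the 8 remained called. Over all 12478 genes tested, that setting called 1630 higher and 1929 lower. Nothing is read from the count of subunits, since this contrast led to the choice of the genes. The order of the 8 genes was nearly kept, with Cct2 in place of Cct3 at the top. All 8 log2 folds were above 0 under each alternative tried.

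**Figure D4:**
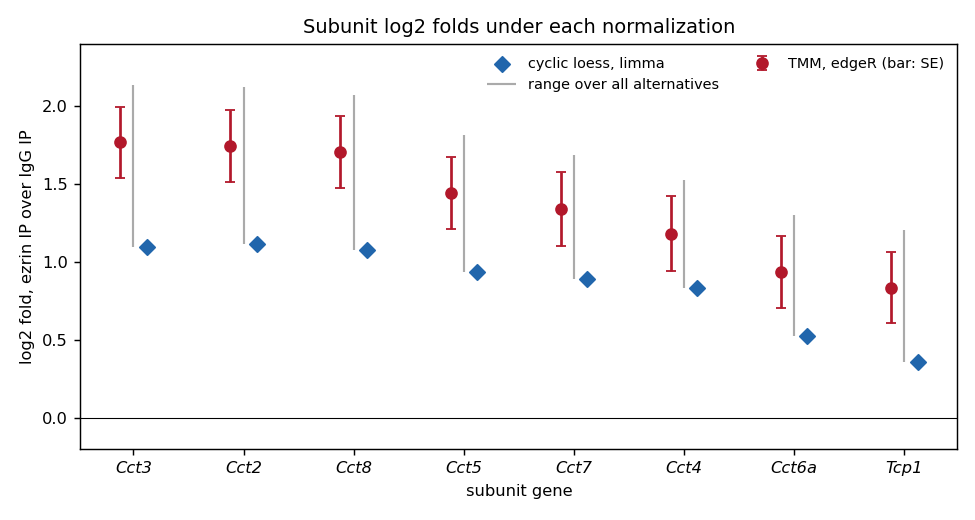
Log2 fold of ezrin over IgG for each subunit by edgeR with TMM (red circles, bars are SE) and after cyclic loess (blue diamonds); grey lines span all alternatives, including those that leave out an ezrin library. No value reaches 0, and the cyclic loess values run from 0.36 (Tcp1) to 1.12 (Cct2).

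The 2 ezrin libraries gave close values for most subunits. The median absolute log2 ratio of replicate 1 to replicate 2 was 0.04 over the 8 genes, against 0.16 over the 574 genes in the same range of CPM. The 574 genes include the subunits and were chosen after the data were seen. The subunits were chosen on folds from these same libraries, so nothing is read from that difference. Cct8 (−0.36), Cct6a (−0.18) and Cct4 (−0.10) were higher in replicate 2, and the other 5 subunits lay between −0.03 and 0.05.

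Counts at a few other genes bear on how the subunit reads can be assigned. No source used here says whether counting used strand, or how reads that match several places were treated. The span of Tcp1 overlaps Mrpl18 by 1459 bases and Acat3 by 1238 bases, that of Cct7 overlaps Pradc1 by 483, that of Cct8 overlaps Usp16 by 191 and that of Cct6a overlaps Psph by 88. Of these, Psph had 1469 and 1094 counts in the ezrin libraries and 326 in IgG (log2 fold 1.02, edgeR adjusted p = 6.32e-04), and Mrpl18 980 and 794 in the ezrin libraries and 469 in IgG (log2 fold −0.03, edgeR adjusted p = 0.944). Pradc1, Acat3 and Usp16 had at most 517 counts in any library and were not called. The snoRNA genes Snora20, inside the span of Tcp1, and Snora15 and Gm23245, inside that of Cct6a, were at 0 in all 3 libraries. A count of 0 does not exclude an expected count of up to about 3. That bound holds only if reads there were assigned to the snoRNA genes, which is not known. Pseudogenes of Tcp1 and Cct3 on chromosome 4 (Tcp1-ps1 and Cct3-ps1) were not analysed here, and reads shared with such copies are an uncertainty in the values of Tcp1 and Cct3. Cct6b, the paralog of Cct6a known from testis, had 7 and 11 counts in the ezrin libraries and 6 in IgG, and Cct8l1 had 0, 0 and 1.

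Genes that act with CCT, or whose proteins it folds, were called in both directions by edgeR with TMM, but by limma on log2(RPKM + 1) in the higher direction alone. Of 62 such genes, 54 passed the filter on low counts, and edgeR called 23 higher, 4 lower and 27 not at all, with a median log2 fold of 0.69. Over all 12478 genes tested 19.0% were higher and 17.4% lower, and 48.8% were higher among the 574 genes in the subunits' range of CPM. Most of the 54 genes average below that range, so the 48.8% is not matched to them in abundance. After cyclic loess 14 of these genes were higher and 5 lower, and with limma on RPKM 35 were higher and 0 lower. Over all genes tested, cyclic loess gave 1630 higher and 1929 lower, and limma on RPKM 3734 higher and 964 lower. The lists were chosen with earlier results of these data known, so their calls and adjusted p-values are a description. Nothing particular to any list is read from these counts. Among the 6 prefoldin genes Pfdn6 was higher (0.82, edgeR adjusted p = 0.00428), Pfdn1 lower (−0.82, edgeR adjusted p = 0.00298) and the others not called, and their median was −0.09. Of 3 measured phosducin-like genes, Pdcl3 was higher (0.93, edgeR adjusted p = 0.00245), and Pdcl (0.58) and Txndc9 (0.30) were not called. Of 7 tubulin cofactor genes, which assemble tubulin dimers after CCT has folded the chains, Tbcd (1.80), Tbce (1.31) and Tbcb (1.04) were higher and the related Tbcel lower (−0.86). None of 4 measured paralogs and chaperonin-like genes (Cct6b, Mkks, Bbs10 and Bbs12) was called by edgeR, and 0 had an unadjusted p under 0.05.

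Among messages of client proteins, 1 of 3 actins, 7 of 13 tubulins and 10 of 18 other clients were called higher, with median log2 folds of 0.83 for actins, 0.78 for tubulins and 0.75 for other clients. The share called higher was 19.0% over all genes tested and 48.8% in the subunits' range of CPM, and the share called lower over all genes was 17.4%. Most of these client genes average below that range, so the 48.8% is not matched to them in abundance. The client lists, too, were chosen with earlier results of these data known. Of 3 measured actins, Actg1 was higher (0.91, edgeR adjusted p = 1.64e-04), with 2437 and 2114 CPM in the ezrin libraries and 1208 CPM in IgG. Actb, at 3597 and 3107 CPM in the ezrin libraries and 2931 CPM in IgG, was not called (0.19, edgeR adjusted p = 0.466), nor was Acta2 (0.83). Of 13 measured tubulins 7 were higher and none lower by edgeR (9 and 0 at an unadjusted p under 0.05), namely Tubb4b (1.56), Tubb2a (1.41), Tuba1c (1.25), Tubb5 (0.93), Tuba4a (0.78), Tubb6 (0.71) and Tuba1b (0.68). Actin and tubulin genes have near-identical copies within their families, so single values among them are uncertain. Of the 18 other clients, 2 were lower. Higher were the Bardet-Biedl proteins Bbs2 (1.85), Bbs7 (1.60) and Bbs9 (1.21), the mitotic activator Cdc20 (1.51) and the kinase Plk1 (1.01), and lower were the tumour suppressor Vhl (−1.02) and the G protein subunit Gnb1 (−0.68).

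Hsp70 and Hsp90 genes and genes of another large complex, the 20S proteasome core, were also called higher, at 7 of 8 and 9 of 14 genes. The share called higher was 19.0% of all genes tested and 48.8% of those in the subunits' range of CPM. Most of the proteasome genes average below that range, and Hspa8 and Hsp90ab1 above it. The 48.8% is thus not matched to these lists in abundance. Prefoldin, also a chaperone of the cytosol, had 1 of 6 higher. Of 8 cytosolic Hsp70 and Hsp90 genes and their partners, 7 were higher, with a median of 1.44, led by Hsp90ab1 (1.78), Hsp90aa1 (1.77) and Hsph1 (1.76), and Dnajb1 was lower (−0.78). Of the 14 proteasome genes, 9 were higher and none lower by edgeR (the same at an unadjusted p under 0.05), with a median of 0.75 and Psma2 at the top (1.40). Of the mitochondrial chaperonin pair, Hspd1 was higher (1.51) and Hspe1 was not called (0.31). Of 7 prefoldin-like and R2TP genes, Ruvbl2 (1.76), Ruvbl1 (1.62) and Rpap3 (1.12) were higher and the others not called. These lists were also chosen with earlier results of these data known, and the difference between any of them and the subunits was not tested.

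**Figure D5:**
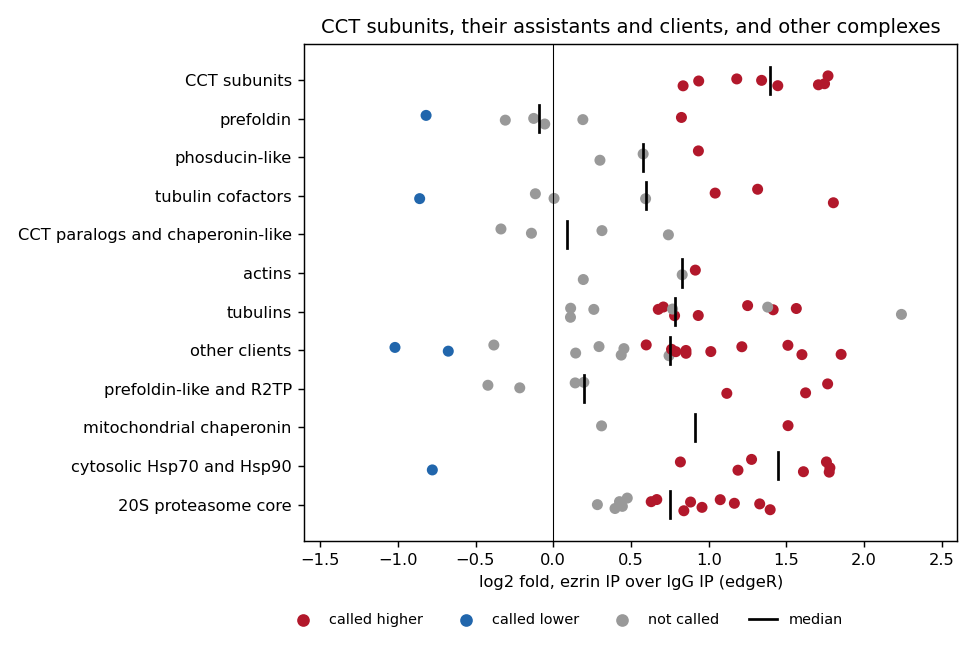
Log2 fold of ezrin over IgG by edgeR for every measured gene of each list, with 1 point per gene, red for called higher, blue for called lower and grey for not called, and black lines at the medians. The 8 subunits lie between 0.84 and 1.77 (median 1.39), and the 8 Hsp70 and Hsp90 genes between −0.78 and 1.78 (median 1.44). The 6 prefoldin genes lie between −0.82 and 0.82, but average at most 132 CPM, below every subunit.

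Among the genes whose pair of log2 ratios to IgG lay closest to the median pair of the subunits (1.40 and 1.38, with 1 CPM added) were Dlgap5, Gm4737, Anxa2 and Pfas. They were taken by Euclidean distance from the 8596 other genes that averaged 10 CPM or more over the 3 libraries, which was 0.0264 for Dlgap5 and 0.0398 for Pfas. Dlgap5 had 85.3 and 86.0 CPM in the ezrin libraries and 31.9 CPM in IgG, and Anxa2 1487 and 1416 in the ezrin libraries and 550.5 in IgG. Many genes have nearly the same pair of ratios, and 3 libraries cannot set them apart further.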

How the data were processed

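RNA of 3 immunoprecipitations was measured by RIP-seq. The authors deposited 1 table of raw counts and 1 of RPKM per library, both by gene symbol. GRCm38 is the build named in the submitters' processing notes. Aligner, counter and annotation are not given in the sources used. Labels name both ribosomal RNA depletion and polyA RNA.

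The 8 subunits and the gene lists were chosen with earlier results of these data known. Counts were tested with edgeR 4.0.16 (R 4.3.3): TMM factors (1.02, 1.04 and 0.946 for ezrin replicates 1 and 2 and IgG), filterByExpr by group, the quasi-likelihood test and Benjamini-Hochberg adjustment at 0.05 over 12478 genes. Only the ezrin libraries supply a residual degree of freedom (1); IgG is taken to vary as they do, and p-values measure only the spread between these libraries, which may be technical. SE is the size of the log2 fold over the square root of F. Log2 ratios of single libraries have 1 CPM added. On simulated counts for this comparison (12478 genes), 60.4% of genes raised 2-fold, 44.8% lowered 2-fold, 99.2% raised 4-fold and 95.6% lowered 4-fold were called. The changed genes were a small part of all genes and were drawn only above a minimum count. The rates therefore do not cover genes with few counts. IgG was simulated with the same spread as the ezrin libraries.

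Gene lengths came from count over RPKM, scaled on short RNAs of known RefSeq length. Named were the subunits, Ezr, genes overlapping a subunit, the 5 genes nearest in pattern, and per list the 3 most abundant and up to 6 called genes; some of these are not reported here. Where 1 gene of a list was called in the other direction (Dnajb1), it was named after its value was seen. Alternatives (filter, normalization, DESeq2 1.42.0, limma 3.58.1 on log2(RPKM + 1), protein-coding genes only, leaving out an ezrin library) were recomputed for each result.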

Additional observations from a re-analysis of the deposited data

How the results depend on the processing

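All 8 subunits were called higher under 8 alternatives with a test, and 6 after cyclic loess. Every alternative reuses counts of the same libraries. Nothing is read from those calls, since this contrast led to the choice of the subunits. Their median log2 fold of 1.39 became 1.49 with no filter beyond 1 count, 1.28 at a mean of at least 10 CPM, 1.30 with upper quartile scaling, 1.51 with library size only, 1.38 with protein-coding genes only, 0.91 after cyclic loess and 1.75 with limma on log2(RPKM + 1). Without ezrin replicate 1 or 2 it was 1.41 or 1.40, as values with no test. RPKM moved the median of all genes to 0.22 and library size only moved it to 0.10, from −0.02. For single subunits, 81 of 88 recomputed values kept their call or lay within the spread. After cyclic loess 2 lost their call (Cct6a and Tcp1), and 5 without ezrin replicate 1 moved by more than the spread. The spread is the standard deviation of a gene's own log2 ratios in the 2 ezrin libraries, so it is small where these coincide. Without replicate 1, Tcp1 went from 0.84 to 0.87 and was counted as moved. Cct8 went from 1.71 to 1.91 and was not, so this count does not rank the subunits by stability. No recomputed value changed sign. Of the assistants and clients, 14 were higher and 5 lower after cyclic loess, and with limma on RPKM 35 were higher and 0 lower (0 also at an unadjusted p under 0.05), against 23 higher and 4 lower. Over all genes, 2377 were higher and 2171 lower, against 3734 and 964 with limma on RPKM, 2872 and 1761 with library size only, 2630 and 1905 with no filter beyond 1 count and 1747 and 1101 with DESeq2. Lower calls outnumbered higher ones with upper quartile scaling (2002 higher, 2626 lower), after cyclic loess (1630 and 1929) and when genes averaging under 10 CPM were left out (1836 and 1864). No paired analysis was possible with 1 IgG library, and no source used here says that equal replicate numbers mark a pair. With 1 IgG library, its own spread is unknown.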
